A study of Mus musculus with 20 samples.

Results

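The 9 genes described here, Reg3b, Reg3g, Lcn2, Duox2, Duoxa2, Nos2, Saa1, Saa2 and Saa3, encode defence proteins that the intestinal lining can switch on. They were taken by symbol from a table of 24795 genes, and all 9 were found. RNA was sequenced from 20 mouse intestinal libraries: 7 of Apc Min mice with a control treatment (control Min), 6 of Apc Min mice given DM-aKG (DM-aKG Min) and 7 of wild-type (WT) mice listed as untreated. The Apc Min allele is a nonsense mutation in Apc, a brake on Wnt signalling, and Min mice grow intestinal adenomas. The compound DM-aKG (dimethyl alpha-ketoglutarate) is an ester that enters cells and yields the metabolite alpha-ketoglutarate, and the series asks how it bears on Wnt signalling and differentiation. Every library carries the label of a low-glutamine organoid medium, titles name tissue where other fields name organoids, and strain, sex and age are not stated in these labels. Control Min and WT differ in genotype and in the treatment listed, and these cannot be told apart. Since no label ties a library to an animal, the p-values given below measure only how far these libraries spread.

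Epithelial defence genes of this kind are known to be low at rest in much of the gut and to be induced by microbes, injury and cytokines. IL-22, made by innate lymphoid and Th17 cells, acts through its receptor and the transcription factor STAT3. IL-17, IL-1 and Toll-like receptors act through NF-kB and C/EBP factors. Reg3b and Reg3g are secreted C-type lectins that act on bacteria at the mucosal surface. Lcn2 binds bacterial siderophores and so withholds iron, and neutrophils make it as well as epithelium. Duox2 is an oxidase that releases hydrogen peroxide at the apical surface, and Duoxa2 is the partner it needs to leave the endoplasmic reticulum. Nos2 makes nitric oxide, and Saa1, Saa2 and Saa3 are serum amyloid A proteins of the acute-phase response, of which Saa3 is made mainly outside the liver.

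Several of the members sit beside a relative, and their promoters are shown because the members described below as moving together or apart include such neighbours. Duox2 (chr2:122279247-122298449, minus strand) and Duoxa2 (chr2:122298900-122302885, plus strand) are transcribed away from each other, with RefSeq start sites 673 bases apart. Saa3 (chr7:46711998-46715700, minus strand), Saa1 (chr7:46740497-46742980, minus strand) and Saa2 (chr7:46751790-46754313, plus strand) lie in 1 cluster, Saa1 and Saa2 with starts 8853 bases apart. Reg3b (chr6:78370657-78373466, plus strand) and Reg3g (chr6:78466269-78468872, minus strand) start 97989 bases apart. Lcn2 is at chr2:32384633-32388252 on the minus strand and Nos2 at chr11:78920787-78960254 on the plus strand. These gene positions are from GENCODE M21 on mm10, in which all 9 are protein coding. RefSeq gave a promoter window for 8 of the 9, all but Nos2, on GRCm38.p6, from 250 bases before to 50 after its start site. Of these, 6 are printed 5′ to 3′ on the strand of the gene, with capitals marking every match to the motifs searched. The windows are chr2:32387690-32387989 (Lcn2), chr7:46715627-46715926 (Saa3), chr2:122298178-122298477 (Duox2), chr2:122298650-122298949 (Duoxa2), chr6:78370635-78370934 (Reg3b) and chr6:78468825-78469124 (Reg3g).
Lcn2: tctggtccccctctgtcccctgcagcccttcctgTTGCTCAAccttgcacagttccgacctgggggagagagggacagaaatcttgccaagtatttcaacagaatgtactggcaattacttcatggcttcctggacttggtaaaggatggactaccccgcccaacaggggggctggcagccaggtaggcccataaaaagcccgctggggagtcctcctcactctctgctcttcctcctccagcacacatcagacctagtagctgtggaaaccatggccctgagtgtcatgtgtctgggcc
Saa3: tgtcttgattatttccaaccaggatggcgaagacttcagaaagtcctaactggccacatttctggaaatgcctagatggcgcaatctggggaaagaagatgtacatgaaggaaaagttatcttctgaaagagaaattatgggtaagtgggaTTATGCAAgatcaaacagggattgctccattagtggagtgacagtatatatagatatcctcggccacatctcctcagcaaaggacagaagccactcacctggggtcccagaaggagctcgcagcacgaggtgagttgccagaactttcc
Duox2: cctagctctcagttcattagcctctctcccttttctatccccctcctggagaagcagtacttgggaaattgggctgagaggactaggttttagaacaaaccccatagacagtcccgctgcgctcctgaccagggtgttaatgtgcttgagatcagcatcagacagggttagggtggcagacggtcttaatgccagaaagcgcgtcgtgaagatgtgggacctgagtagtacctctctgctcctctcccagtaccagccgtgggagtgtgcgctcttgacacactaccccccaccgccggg
Duoxa2: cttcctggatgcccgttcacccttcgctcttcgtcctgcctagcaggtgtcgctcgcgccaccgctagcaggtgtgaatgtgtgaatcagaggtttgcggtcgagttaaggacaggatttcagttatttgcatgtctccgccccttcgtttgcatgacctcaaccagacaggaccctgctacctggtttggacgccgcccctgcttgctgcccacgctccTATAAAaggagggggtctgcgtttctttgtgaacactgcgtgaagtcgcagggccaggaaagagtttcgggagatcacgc
Reg3b: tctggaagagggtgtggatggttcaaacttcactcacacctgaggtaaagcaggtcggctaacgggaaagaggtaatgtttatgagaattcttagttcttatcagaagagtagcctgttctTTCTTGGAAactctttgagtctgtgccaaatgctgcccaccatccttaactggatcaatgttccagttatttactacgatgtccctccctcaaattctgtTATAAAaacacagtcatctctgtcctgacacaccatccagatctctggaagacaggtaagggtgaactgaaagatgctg
Reg3g: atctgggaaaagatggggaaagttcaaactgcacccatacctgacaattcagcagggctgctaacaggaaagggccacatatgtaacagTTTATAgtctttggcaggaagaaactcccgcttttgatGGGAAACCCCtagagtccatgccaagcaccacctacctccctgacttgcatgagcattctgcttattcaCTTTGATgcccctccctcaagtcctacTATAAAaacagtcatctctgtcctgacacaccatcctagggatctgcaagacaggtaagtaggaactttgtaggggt

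The motifs were searched on both strands, and none of their matches overlapped. The C/EBP motif TTGCNNAA stood in the windows of Lcn2 and Saa3 and also in those of Saa1 and Saa2, 4 of the 8 members with a window, and in 10.8% of all 32851 promoters. The STAT motif TTCNNNGAA, in 8.3% of all promoters, was found in Reg3b at positions -129 to -121 from the start. The NF-kB motif, in 8.5% of all promoters, was found in Reg3g at positions -123 to -114. Reg3g also held the TCF/LEF motif CTTTGAT of Wnt-regulated genes, which 3.7% of all promoters hold. TATAAA, the TATA box core in 13.6% of all promoters, stood at positions -30 to -25 in Duoxa2, -29 to -24 in Reg3b and -27 to -22 in Reg3g, which held another match on the opposite strand. The Duox2 window held none of the 5 motifs, which says only that these letters are not in it. Aligned windows of Reg3b and Reg3g were identical at 68.6% of columns, those of Saa1 and Saa2 at 95.3%, those of Saa1 and Saa3 at 50.1% and those of Duox2 and Duoxa2 at 46.5%.

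Values are RPKM, reads per kilobase of gene scaled to the mapped reads of the library, so levels of different genes can be compared with each other. Depth was estimated at 21.25 to 29.3 M reads per library, and the 9 genes together held 0.341 to 4.43% of the summed RPKM. Epithelial markers were measured in every library, with Epcam between 506.5 and 1090 RPKM, and so were the smooth muscle gene Myh11 (36.8 to 212.6 RPKM) and the plasma cell gene Jchain (34.4 to 689.1 RPKM), which epithelial cultures lack. The ileal bile acid binding protein gene Fabp6 was measured in every library, from 158.2 to 9728 RPKM, while the colon gene Car1 did not exceed 0.78 RPKM. The summed RPKM of 10 epithelial markers was 4820 to 6580 in WT, 3890 to 5702 in control Min and 2930 to 4003 in DM-aKG Min. Of the 10 macrophage markers, 3 were lower and none higher with DM-aKG, a share near the 27.6% of all genes tested that were lower. In control Min against WT, 5 of the 10 were lower and 2 higher. Their sum was 93.7 to 171.1 RPKM in WT, 81.3 to 121 in control Min and 64.9 to 112.5 in DM-aKG Min. Of 6 plasma cell markers, 4 were lower and 1 higher in control Min than in WT. The plasma cell sum was 295.7 to 825.6 RPKM in WT, 183 to 278.8 in control Min and 180.4 to 317.5 in DM-aKG Min. All 8 smooth muscle markers were lower in control Min than in WT and higher with DM-aKG. Of 8 Paneth cell markers, 6 were lower and 1 higher in control Min than in WT, and 7 rose and 1 fell with DM-aKG. Over all genes 15.7% were lower in control Min than in WT and 5.91% rose with DM-aKG. Smooth muscle sums were 864.7 to 1506 RPKM in WT, 339.5 to 1208 in control Min and 740 to 1358 in DM-aKG Min. The part of such differences in the member values was not tested. Marker lists of liver and pancreas gave mixed values. Of the acinar list, Cela1 was 1.94 to 3.72 RPKM in WT, 23.5 to 60.3 in control Min and 2.53 to 17.6 in DM-aKG Min, while the other 7 genes did not exceed 0.208 RPKM in any library. Of the hepatocyte list, Fgb was at most 0.841 RPKM. Ttr was 0.629 to 1.46 RPKM in WT, 3.98 to 33.2 in control Min and 1.90 to 26.6 in DM-aKG Min. Alb was 19.4 to 64.1 RPKM in control Min, 0.036 to 17.0 in DM-aKG Min and 0 to 2.29 in WT. Other genes of this list went another way. Mean RPKM in WT, control Min and DM-aKG Min was 49.9, 16.6 and 29.9 for Cps1, 0.499, 0.161 and 0.229 for Apoh, and 20, 30.6 and 53.35 for Cyp2e1. Of the 4 hepatocyte genes tested, 2 were higher and 1 lower in control Min than in WT, beside 43.2% and 15.7% of all genes.

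The members did not respond as 1 block. Lcn2 and Saa3 were high in control Min and low in WT, Duox2 and Duoxa2 were lowest with DM-aKG, and Reg3b, Reg3g, Saa1 and Nos2 spread widely within a group. With DM-aKG against control Min, 4 of the 8 members tested fell (Lcn2, Saa3, Duox2 and Duoxa2) and none rose, where 27.6% of all 12433 genes tested fell and 5.91% rose. In control Min against WT, 2 were higher (Lcn2 and Saa3) and 2 lower (Duox2 and Nos2), where 43.2% of all genes were higher and 15.7% lower. In DM-aKG Min against WT, 1 was higher (Lcn2) and 3 were lower (Duox2, Duoxa2 and Reg3g), where 21.9% of all genes were higher and 17.3% lower. The median log2 difference of the 8 members was -1.41, -0.95 and -1.88 in these comparisons, beside -0.14, 0.20 and 0.05 over all genes tested. The 8 are the members that reached 1 RPKM in 6 or more libraries, which Saa2 did not, and a call is an adjusted p under 0.05 in limma over all 12433 genes. The 3 comparisons share their groups, so the calls are not independent. Differences are of mean log2(RPKM + 1), which understates the change of low genes.

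**Figure D1:**
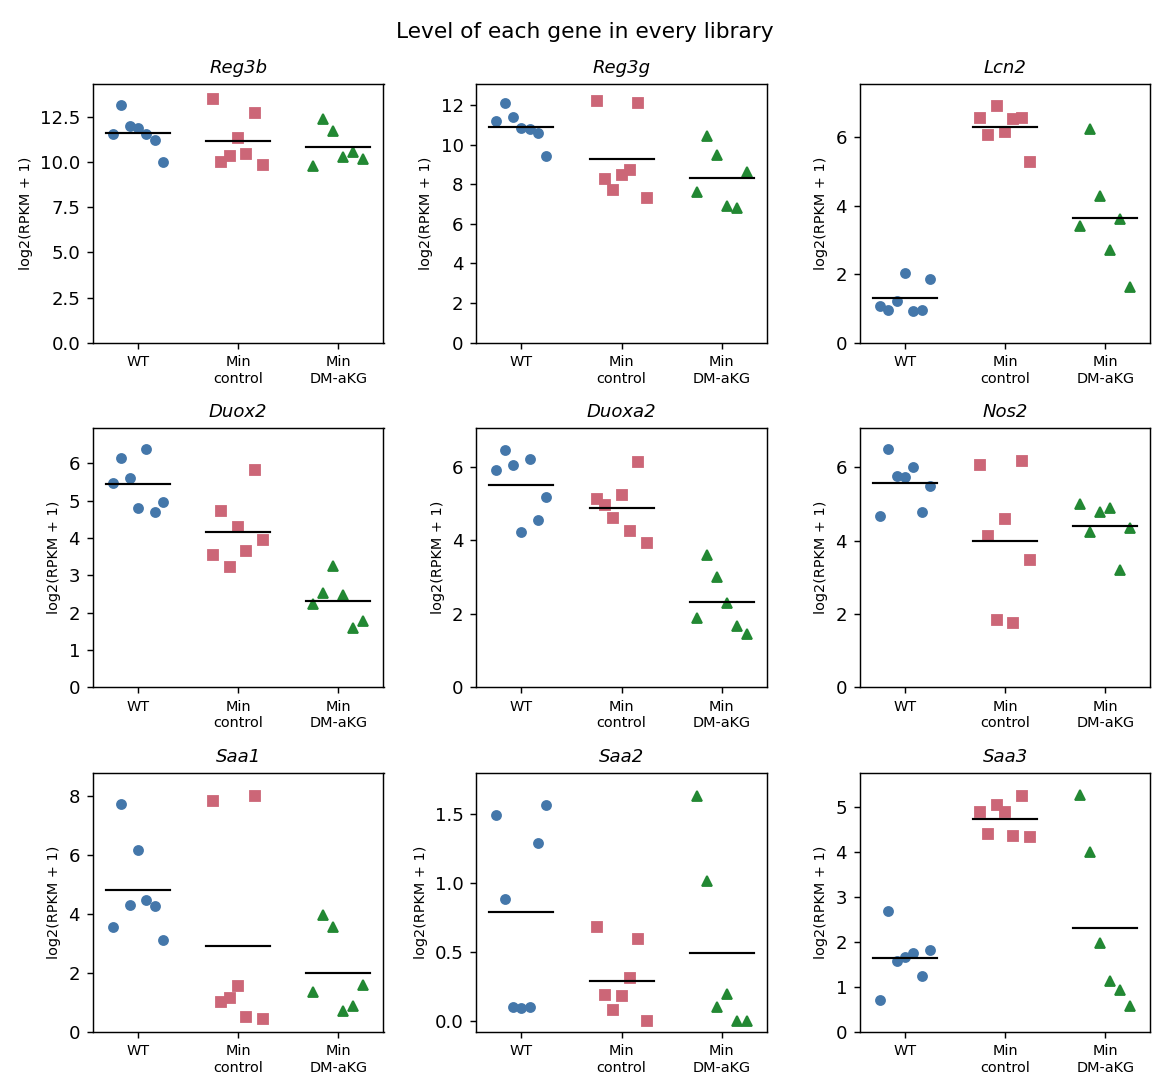
Level of each of the 9 genes on the log2(RPKM + 1) scale in every library, with 7 WT (circles), 7 control Min (squares) and 6 DM-aKG Min libraries (triangles) in order of replicate number and a line at each group mean. Lcn2 and Saa3 form a high band in the 7 control Min libraries, Duoxa2 is lower in all 6 DM-aKG Min libraries than in any other, and Saa1 is near 8 in only 2 control Min libraries.

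Lcn2 was nearly silent in WT and high in control Min. It lay between 0.914 and 3.14 RPKM in the 7 WT libraries (median 1.12) and between 38.0 and 118 RPKM in the 7 control Min libraries (median 90.4). No control Min library overlapped WT, and the difference was 4.99 on the log2 scale (SE 0.47, limma adjusted p = 5.29e-08). With DM-aKG the 6 values were 9.71, 74.5, 18.4, 5.47, 11.3 and 2.08 RPKM in replicates 1 to 6. Replicate 2 fell inside the control Min range, and the other 5 were below every control Min library. The fall from control Min was 2.64 (95% interval -3.66 to -1.62, SE 0.489, adjusted p = 0.000386), and without replicate 2 it was 3.16 (adjusted p = 1.13e-06). Lcn2 in DM-aKG Min still exceeded WT by 2.35 (adjusted p = 0.00117). In replicates 5 to 7 alone that difference was 1.36 and did not pass (adjusted p = 0.203). The DM-aKG group ends at replicate 6, so every fit of replicates 5 to 7 holds only its replicates 5 and 6. Not passing there says little.

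Some neutrophil markers were high where Lcn2 was high, and fewer cells of a type and less RNA per cell cannot be told apart in bulk libraries. Ly6g, a neutrophil surface protein, was at 0 RPKM in 6 of 7 WT libraries and at 0.0423 RPKM in the other. It was 2.74 to 44.6 RPKM in control Min, and 0.0394 to 5.52 RPKM in 5 DM-aKG Min libraries with 32.5 RPKM in replicate 2, the library in which Lcn2 was also highest. The summed RPKM of 11 neutrophil markers was 0.408 to 1.34 in WT, 15.5 to 70.1 in control Min and 1.77 to 44.1 in DM-aKG Min. Only 5 of the 11 could be tested, and each passed the filter only because control Min was counted, so that all 5 were higher there than in WT is no support. With DM-aKG, Ly6g (-1.83, adjusted p = 0.047) and Ltf (-2.92, adjusted p = 8.74e-09) fell. The same filter route favours falls from control Min, so these falls are no support either. S100a8 (-0.36, adjusted p = 0.395), S100a9 (-0.35, adjusted p = 0.426) and Retnlg (-0.15, adjusted p = 0.616) did not pass. Csf3r, a neutrophil growth factor receptor, was below the filter, with means of 0.349 RPKM in WT, 0.325 in control Min and 0.24 in DM-aKG Min. Mpo and Elane, enzymes of neutrophil granules, did not exceed 0.0147 and 0.0819 RPKM in any library. The part of neutrophils in the Lcn2 values was not tested.

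Saa3 followed Lcn2 in control Min and WT. It was 0.628 to 5.39 RPKM in WT (median 2.16) and 19.0 to 36.8 RPKM in control Min (median 28.5), with no overlap and a log2 difference of 3.10 (SE 0.552, adjusted p = 9.73e-05). With DM-aKG it was 37.2, 14.9, 2.95, 1.196, 0.903 and 0.492 RPKM in replicates 1 to 6. Replicate 1 was above every control Min library, replicate 2 was just below them, and replicates 3 to 6 lay within or below the WT range. The fall with DM-aKG was 2.42 (95% interval -3.62 to -1.22, adjusted p = 0.00316). It was 3.01 without replicate 1 (adjusted p = 4.66e-05), and in replicates 1 to 4 alone it was -1.71 and did not pass (adjusted p = 0.13). DM-aKG Min and WT did not differ by the test (0.68, 95% interval -0.52 to 1.88, adjusted p = 0.356).

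The summed fibroblast markers, like Lcn2 and Saa3, were on average highest in control Min. The summed RPKM of 7 such genes was 75.2 to 148.2 in WT, 222.1 to 326.4 in control Min and 106.6 to 199.4 in DM-aKG Min, so control Min overlapped neither other group. Of the 7, 6 were higher in control Min than in WT (43.2% of all genes tested) and 5 fell with DM-aKG (27.6% of all genes), among them the collagen gene Col1a1 (-2.405, adjusted p = 3.91e-07). The part of fibroblasts in the Lcn2 and Saa3 values was not tested.

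Duox2 and its maturation factor were highest in WT and lowest with DM-aKG. Duox2 was 25.1 to 81.8 RPKM in WT (median 43.2), 8.39 to 55.4 RPKM in control Min (median 14.3) and 1.98 to 8.57 RPKM in DM-aKG Min (median 4.12). Control replicate 6 stood at 55.4 RPKM, and the next control Min library was at 25.4 RPKM, so control Min overlapped WT, while DM-aKG Min overlapped control Min only at its highest library. The fall with DM-aKG was 1.86 against control Min (95% interval -2.64 to -1.09, adjusted p = 0.000723) and 3.13 against WT (adjusted p = 6.01e-06), the latter with no overlap. Control Min was lower than WT by 1.27 (SE 0.358, adjusted p = 0.00498), a difference that was -0.88 in replicates 5 to 7 alone and did not pass there (adjusted p = 0.287).

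Duoxa2 was 17.9 to 87.9 RPKM in WT (median 60.01) and 14.3 to 69.4 RPKM in control Min (median 30.1). The 6 DM-aKG Min libraries had 2.71, 11.1, 7.09, 3.92, 2.20 and 1.75 RPKM, all below every library of the other groups. The fall was 2.57 against control Min (95% interval -3.44 to -1.71, SE 0.415, adjusted p = 9.2e-05), which in mean RPKM is 6.74-fold lower. Against WT it was 3.20 (adjusted p = 1.58e-05), 10.8-fold lower in mean RPKM. Control Min and WT did not differ by the test (-0.63, 95% interval -1.46 to 0.20, adjusted p = 0.184), so of this pair only Duox2 passed between those groups, and whether the 2 genes differ in this was not tested.

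Of the 10 epithelial markers, 6 fell and 1 rose with DM-aKG, beside 27.6% and 5.91% of all genes. Mean Krt18 was 462.2 RPKM in control Min and 163 in DM-aKG Min, while mean Vil1 was 378.1 and 533.7 RPKM. Scaling each library to the mean log2 level of these markers kept all 4 member falls past the threshold. The falls were then 2.32 for Lcn2 (adjusted p = 0.00209), 2.17 for Saa3 (adjusted p = 0.00911), 1.57 for Duox2 (adjusted p = 0.00301) and 2.28 for Duoxa2 (adjusted p = 0.000394). Because the markers moved in both directions, this scaling is not a measure of epithelial content alone. The libraries were also split into replicates 1 to 4 and replicates 5 to 7, and within these sets the log2 difference with DM-aKG was -2.26 and -3.49 for Lcn2, -1.71 and -3.89 for Saa3, -1.32 and -2.79 for Duox2, and -2.29 and -3.20 for Duoxa2. None of the 8 members had a difference between the sets that passed (adjusted p of the interaction at least 0.427). The later set held only replicates 5 and 6 of the DM-aKG group, so not passing says little.

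**Figure D2:**
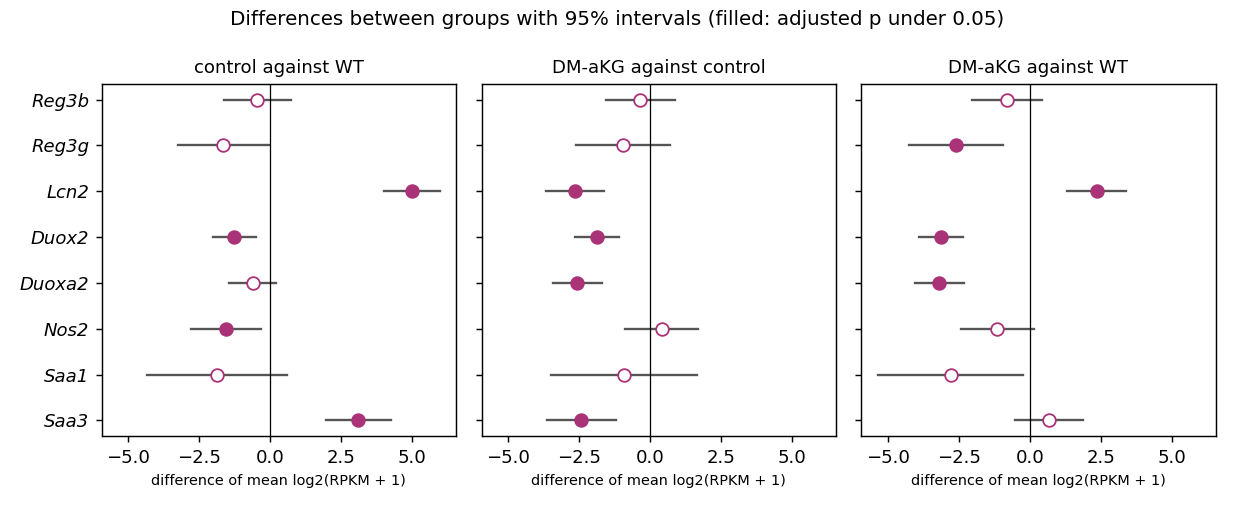
Differences of mean log2(RPKM + 1) between groups (x axis) with unadjusted 95% intervals for the 8 genes tested, filled where the limma adjusted p over all genes was under 0.05. Lcn2 and Saa3 lie to the right in control Min against WT and to the left in DM-aKG against control Min, and the widest intervals are those of Saa1.

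Reg3b had the highest median of the 9 in every group and did not pass in any comparison. It was 1037 to 9088 RPKM in WT (median 2935), 912.8 to 11280 RPKM in control Min (median 1400) and 884.3 to 5378 RPKM in DM-aKG Min (median 1364). Control replicates 1 and 6, at 11280 and 6739 RPKM, stood above the other 5 control Min libraries, which did not exceed 2510 RPKM. The difference with DM-aKG was -0.35 (95% interval -1.57 to 0.88, adjusted p = 0.684), and without control replicate 1 it was 0.038. Control Min against WT gave -0.45 (95% interval -1.63 to 0.73, adjusted p = 0.511), and DM-aKG Min against WT -0.80 (adjusted p = 0.288).

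Reg3g, its close relative, was 686.8 to 4433 RPKM in WT (median 1792), 156.7 to 4638 RPKM in control Min (median 348.9) and 110.7 to 1379 RPKM in DM-aKG Min (median 288.6). The same control replicates stood apart, with 4638 RPKM in replicate 1 and 4390 RPKM in replicate 6 against at most 418 RPKM in the other 5. DM-aKG Min was lower than WT by 2.60 (95% interval -4.25 to -0.95, adjusted p = 0.0144), with overlap, and this did not pass in replicates 5 to 7 alone (adjusted p = 0.227). Control Min was -1.65 from WT and did not pass (adjusted p = 0.0685), but without control replicate 1 it was -2.14 (adjusted p = 0.0136) and without replicate 6 it was -2.13 (adjusted p = 0.0149). DM-aKG against control Min gave -0.95 (95% interval -2.60 to 0.70, adjusted p = 0.371).

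The mean ratio of Reg3g to Reg3b was lower in the Min groups than in WT. The ratio of Reg3g to Reg3b was 0.621 ± 0.111 in WT (SD, n = 7), 0.306 ± 0.181 in control Min (n = 7) and 0.199 ± 0.0996 in DM-aKG Min (n = 6). No DM-aKG Min library, at 0.0741 to 0.338, reached the WT range of 0.486 to 0.805, and control Min, at 0.139 to 0.652, overlapped it. These ratios are a description and were not tested.

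Saa1 had the widest intervals of the 8 genes tested. It was 7.74 to 212 RPKM in WT (median 18.9), and replicate 2 was highest, as it was for Reg3b, Reg3g, Saa3, Nos2 and Duoxa2. In control Min it was 232 and 257 RPKM in replicates 1 and 6 and 0.351 to 1.95 RPKM in the other 5. In DM-aKG Min it was 1.56, 14.7, 10.7, 0.649, 0.843 and 2.004 RPKM. No comparison passed: -0.92 with DM-aKG (95% interval -3.49 to 1.65, adjusted p = 0.596), -1.88 in control Min against WT (adjusted p = 0.18) and -2.80 in DM-aKG Min against WT (adjusted p = 0.0764). Mean RPKM was higher in control Min (70.5 ± 119) than in WT (51.5 ± 74.0) although the mean log2 level was lower. Leaving out control replicate 1 or 6 brought the control Min difference from WT to -2.70 (adjusted p = 0.0356) or -2.72 (adjusted p = 0.0315). With either library out of the shared fit, DM-aKG Min against WT also passed, at adjusted p = 0.043 without replicate 1 and 0.0393 without replicate 6.

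Saa2, the near-identical neighbour of Saa1, was close to the limit of detection. It was 0.0664 to 1.95 RPKM in WT, 0 to 0.60 RPKM in control Min and 0 to 2.10 RPKM in DM-aKG Min, at most about 34.5 reads in a library if the lowest value is taken as 1 read. The library with the highest Saa1 of all, control replicate 6, had 0.504 RPKM of Saa2. Of the 50-base stretches of the Saa2 transcripts 30% occur in Saa1, and 31.1% of those of Saa1 occur in Saa2. How reads shared by these genes were assigned is not known here, and RefSeq lists the 2 names as older names of each other, so the split between them is uncertain.

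Nos2 was 24.4 to 89.2 RPKM in WT (median 52.2), 2.35 to 71.2 RPKM in control Min (median 16.4) and 8.21 to 31.1 RPKM in DM-aKG Min (median 23.0). Control replicates 1 and 6 were again highest, at 66.5 and 71.2 RPKM, and replicates 3 and 5 lowest, at 2.57 and 2.35 RPKM, so the groups overlapped. Control Min was lower than WT by 1.56 (95% interval -2.80 to -0.32, adjusted p = 0.0299). That call was lost without WT replicate 2 (adjusted p = 0.0606) or 5 (0.0515) and without control replicate 3 (0.0766), 5 (0.0797) or 7 (0.0536). The difference with DM-aKG was 0.41 (95% interval -0.88 to 1.70, adjusted p = 0.64), and that of DM-aKG Min from WT was -1.15 (adjusted p = 0.143).

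Control replicates 1 and 6, the libraries that stood apart for Reg3b, Reg3g, Saa1 and Nos2, also had the highest sums of 3 other marker lists in the control Min group. Their summed RPKM of 8 smooth muscle markers was 804 and 1208, where the other 5 libraries did not exceed 711.9. Their plasma cell sums were 263.4 and 278.8 RPKM (at most 246.6 in the others) and their macrophage sums 121.2 and 118.2 RPKM (at most 105.5 in the others). The 2 libraries were at opposite ends for Paneth cell markers (814.9 and 11050 RPKM) and for markers of the proximal small intestine (3363 and 341.7 RPKM), and their neutrophil sums, 28.4 and 44.1 RPKM, were inside the control Min range. The part of these cell types or of gut position in the member values was not tested.

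After subtracting each group mean, some members varied together across the 20 libraries. Reg3b and Reg3g had a Pearson r of 0.91 (Spearman rho 0.85, and r 0.85 without the 2 libraries farthest from the median). Saa1 had r 0.91 with Reg3g and 0.90 with Reg3b. Duox2 and Duoxa2 had r 0.78 (rho 0.78, and 0.72 without the 2 libraries). Nos2 was nearest to Saa1, with r 0.75. These were not separate sets: Duoxa2 had r 0.66 with Reg3b and 0.64 with Reg3g, and Nos2 had 0.62 with Reg3g and 0.58 with Duox2. Lcn2, by contrast, had r 0.06 with Duox2 and -0.04 with Nos2. Its r with Saa3 was 0.51 (rho 0.45). That r fell to 0.14 without the 2 libraries in which Lcn2 was farthest from its median, so its size rests largely on those. The points share library, depth and cell makeup, so these values are a description, and the 2 control Min libraries that stood apart carry part of the Reg3 and Saa1 values.

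**Figure D3:**
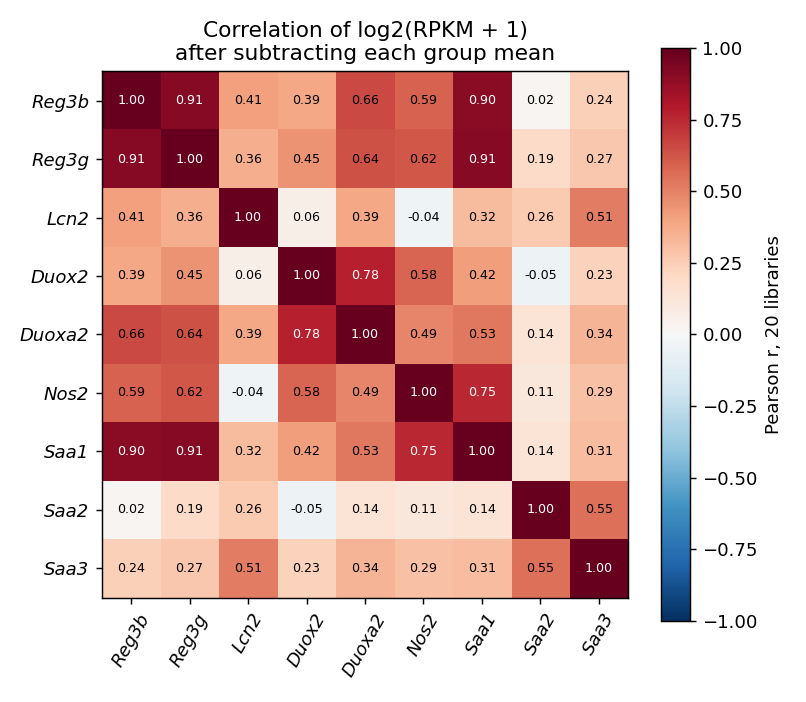
Pearson r between the 9 genes over 20 libraries, computed on log2(RPKM + 1) after subtracting each group mean, with the value printed in each cell. Reg3b, Reg3g and Saa1 stand at 0.90 to 0.91 with each other, Duox2 and Duoxa2 at 0.78, and Duoxa2 and Reg3b at 0.66. Lcn2 is near 0 with Duox2 and Nos2.

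**Figure D4:**
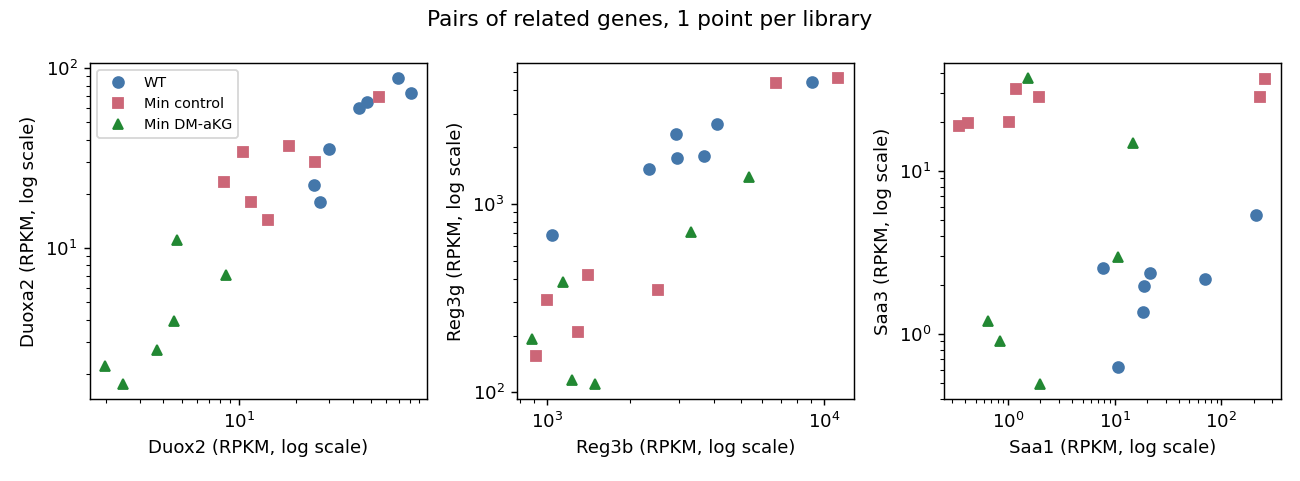
Levels of 3 pairs of related genes in RPKM on log axes, 1 point per library (circles WT, squares control Min, triangles DM-aKG Min). Duox2 and Duoxa2 run along 1 diagonal with DM-aKG Min at its low end, and Saa3 separates control Min from WT where Saa1 does not. WT has on average more Reg3g relative to Reg3b, and control Min overlaps WT in this.

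Duoxa2 and Duox2 are needed together, and their levels stayed of the same order in all groups. The ratio of Duoxa2 to Duox2 was 1.095 ± 0.278 in WT, 1.86 ± 0.856 in control Min and 1.098 ± 0.624 in DM-aKG Min. The 2 amyloid genes did not keep such a ratio: that of Saa3 to Saa1 was 0.0254 to 0.327 in WT, 0.123 to 54.2 in control Min and 0.245 to 23.9 in DM-aKG Min.

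The cytokines known to induce these genes were mostly too low to test. Of 10 signals, 3 passed the filter. Il22 had a median of 0 RPKM in every group, so most libraries of each group held none. Its highest value was 0.0326 RPKM in WT, 0.927 in control Min and 0.0346 in DM-aKG Min. Il17a did not exceed 0.266 RPKM in any library. Il1b, an inflammatory cytokine, was higher in control Min (2.69 ± 2.52 RPKM) than in WT (0.771 ± 0.347 RPKM) by 0.88 (adjusted p = 0.0062), and passed the filter only with control Min counted. Il33, an alarmin, fell with DM-aKG from 10.1 ± 5.87 to 3.69 ± 2.24 RPKM (-1.202, adjusted p = 0.0345), which did not pass without control replicate 2, 4, 6 or 7, nor without replicate 1, 3, 4 or 5 of the DM-aKG group (adjusted p between 0.056 and 0.0816). It also did not pass under quantile normalization (0.0705), median-of-ratios (0.085) or epithelial scaling (0.127), nor in replicates 1 to 4 (0.182) or 5 to 7 (0.206) alone. Tnf and Il23a were below the filter, at 0.631 to 1.79 and 0.537 to 1.47 RPKM in control Min, 0.0892 to 0.569 and 0.0267 to 0.192 RPKM in DM-aKG Min, and 0.274 to 0.639 and 0.0277 to 0.157 RPKM in WT. They were named after their values were seen, and other signals below the filter differed from them. Ifng had means of 0.272 RPKM in WT, 0.0152 in control Min and 0.0258 in DM-aKG Min. Il17a was also highest in WT, with means of 0.0856, 0 and 0.00536 RPKM. Il6 had means of 0.01425, 0.385 and 0.29 RPKM in the same groups.

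Among 14 receptors and sensors, 12 were tested, and with DM-aKG 1 rose and 3 fell, near the 5.91% and 27.6% of all genes tested. Tlr2 and Tlr4 passed the filter only with control Min counted. Tlr2, a sensor of bacterial lipoproteins, fell from 2.16 ± 0.177 to 0.793 ± 0.407 RPKM (-0.84, adjusted p = 1.68e-05), with no overlap. The falls were -0.53 for Tlr4, the endotoxin receptor (adjusted p = 0.00747), and -0.49 for Il1r1, the receptor of IL-1 (adjusted p = 0.0269). The Il1r1 call was lost without control replicate 5 or 6 or DM-aKG replicate 1, 3, 4 or 6 (adjusted p 0.0511 to 0.0629), and under epithelial scaling both passed no longer (-0.33 for Tlr4, adjusted p = 0.16, and -0.22 for Il1r1, adjusted p = 0.459). Il6ra rose by 0.36 (adjusted p = 0.0487), a call that most single libraries left out removed (adjusted p up to 0.131, without DM-aKG replicate 5). In control Min against WT 5 were higher and 2 lower, near the 43.2% and 15.7% of all genes. Those 2 were Il17rc, a subunit of the IL-17 receptor (16.4 ± 6.72 against 52.0 ± 9.18 RPKM, -1.70, adjusted p = 3.39e-05), and Il22ra2, a soluble protein that binds and blocks IL-22 (0.383 ± 0.35 against 1.82 ± 0.617 RPKM, adjusted p = 2.74e-05). In DM-aKG Min against WT 4 were higher and 2 lower, Il17rc and Il22ra2 again, beside 21.9% and 17.3% of all genes.

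Of 15 intracellular relays and brakes, all tested, 2 fell with DM-aKG and none rose, a smaller share falling than the 27.6% of all genes. They were Socs3, the feedback inhibitor of STAT3 (17.8 ± 13.5 to 8.65 ± 5.56 RPKM, -0.91, adjusted p = 0.0429), and Rela, an NF-kB subunit (17.0 ± 2.997 to 12.5 ± 3.36 RPKM, -0.43, adjusted p = 0.00979). Socs3 was named after its call was seen, and the Rela call was lost under epithelial scaling (-0.099, adjusted p = 0.653), quantile normalization (0.0965) and median-of-ratios scaling (0.143). In control Min against WT 4 were higher and 3 lower, beside 43.2% and 15.7% of all genes. Cebpd, a C/EBP factor, was higher (14.1 ± 4.58 against 3.73 ± 0.924 RPKM, 1.63, adjusted p = 5.58e-06) and was 14.6 ± 8.04 RPKM in DM-aKG Min. Socs1, a feedback inhibitor of cytokine receptor signalling, was lower than in WT (-1.33, adjusted p = 5.13e-05), as were Nfkbiz, a nuclear co-factor of NF-kB (-0.998, adjusted p = 0.000358), and Zc3h12a, an RNase that destroys inflammatory mRNAs (-1.21, adjusted p = 0.000109). In DM-aKG Min against WT 3 were higher and 4 lower, beside 21.9% and 17.3% of all genes.

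Of 16 relatives of the members, 9 were tested, and 4 fell with DM-aKG, beside 27.6% of all genes: Arg1, Reg1, Cyba and Noxa1. Arg1 passed the filter only with control Min counted. Arg1, an arginase that competes with Nos2 for arginine, was 0.102 to 0.521 RPKM in WT, 16.9 to 36.0 RPKM in control Min and 0.295 to 5.28 RPKM in DM-aKG Min. It thus had the order of groups seen in Lcn2, with a difference of 4.45 in control Min against WT (adjusted p = 8.19e-11) and -3.40 with DM-aKG (adjusted p = 1.15e-08), neither with overlap. Cyba, a membrane subunit of NADPH oxidases, fell from 55.0 ± 16.7 to 28.9 ± 6.80 RPKM (-0.88, adjusted p = 0.00184), and Noxa1, an activator of NOX1, by 0.63 (adjusted p = 0.0221). The Noxa1 call was lost without control replicate 6 (adjusted p = 0.0501) or DM-aKG replicate 5 (0.0614) or 6 (0.061), with the replicate block (0.0605) and under epithelial scaling (0.156). Reg1, a lectin of the Reg family, fell from 1.48 ± 0.356 to 0.403 ± 0.237 RPKM (-0.82, adjusted p = 0.000634). In control Min against WT Arg1 and Reg4 were higher and Arg2 was lower, beside 43.2% and 15.7% of all genes. The Arg2 call was lost without WT replicate 1, 3, 6 or 7 or control replicate 5, 6 or 7 (adjusted p 0.0661 to 0.0988). The Arg2 difference of -0.85 (adjusted p = 0.04) was -0.179 in replicates 1 to 4 alone (adjusted p = 0.744), and it also did not pass with no filter (0.0571), with the replicate block (0.0578), with only the 2 groups fitted (0.0683) or under epithelial scaling (0.0739). In DM-aKG Min against WT 2 were higher and 3 lower, beside 21.9% and 17.3% of all genes. Duox1, the other dual oxidase, did not exceed 0.0941 RPKM in any library, nor its partner Duoxa1 0.382 RPKM.

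Of 25 other inducible defence products, 24 were in the table and 23 were tested. Control Min had 12 higher and 5 lower than WT, and DM-aKG gave 3 higher and 10 lower than control Min, beside 43.2% and 15.7%, and 5.91% and 27.6%, of all genes. Of the 23, 9 passed the filter only with control Min counted, Ltf, Retnlb, Wfdc2, Ccl20, S100a8, S100a9, Cxcl1, Cxcl2 and Cxcl5, so these counts are in part set by the filter. Ltf, the iron-binding lactoferrin, was 0.262 ± 0.0957 RPKM in WT and 11.7 ± 3.56 RPKM in control Min (3.29, adjusted p = 2.71e-10), and fell with DM-aKG to 0.761 ± 0.841 RPKM (-2.92, adjusted p = 8.74e-09). Lrg1, a secreted acute-phase glycoprotein, was 1.29 ± 0.68, 39.4 ± 15.4 and 11.1 ± 8.90 RPKM in the same groups (4.10, adjusted p = 1.14e-09, and -1.89, adjusted p = 9.78e-05). Fut2, which fucosylates the epithelial surface, was 1.60 ± 0.797, 12.6 ± 4.46 and 1.46 ± 1.49 RPKM (2.38, adjusted p = 3.63e-07, and -2.59, adjusted p = 6.93e-07). Wfdc2, a secreted protease inhibitor, fell with DM-aKG by 1.34 (adjusted p = 0.000325). The neutrophil-attracting chemokine genes Cxcl1, Cxcl2 and Cxcl5, named after their values were seen, had medians of 0.161, 0 and 0.103 RPKM in WT, 2.99, 2.84 and 1.36 RPKM in control Min and 0.41, 0.24 and 0.112 RPKM in DM-aKG Min. Other genes of the list went the opposite way. Pigr, the receptor that carries IgA across the epithelium, was 686.5 ± 150.8, 129.8 ± 58.8 and 208.4 ± 38.4 RPKM in WT, control Min and DM-aKG Min (-2.48, adjusted p = 2.42e-08, and 0.77, adjusted p = 0.0149). Ang4, a Paneth cell ribonuclease (-2.38, adjusted p = 0.0311, and 3.13, adjusted p = 0.0158), and Itln1, an intelectin that is also on the Paneth cell list (-2.09, adjusted p = 0.004, and 2.04, adjusted p = 0.0125), were likewise lower in control Min than in WT and rose with DM-aKG. These 2 were named after their values were seen. In DM-aKG Min against WT 6 were higher and 4 lower, beside 21.9% and 17.3% of all genes. Ltf, S100a8 and S100a9 are also neutrophil genes, and the neutrophil values given above stand beside these counts too.

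**Figure D5:**
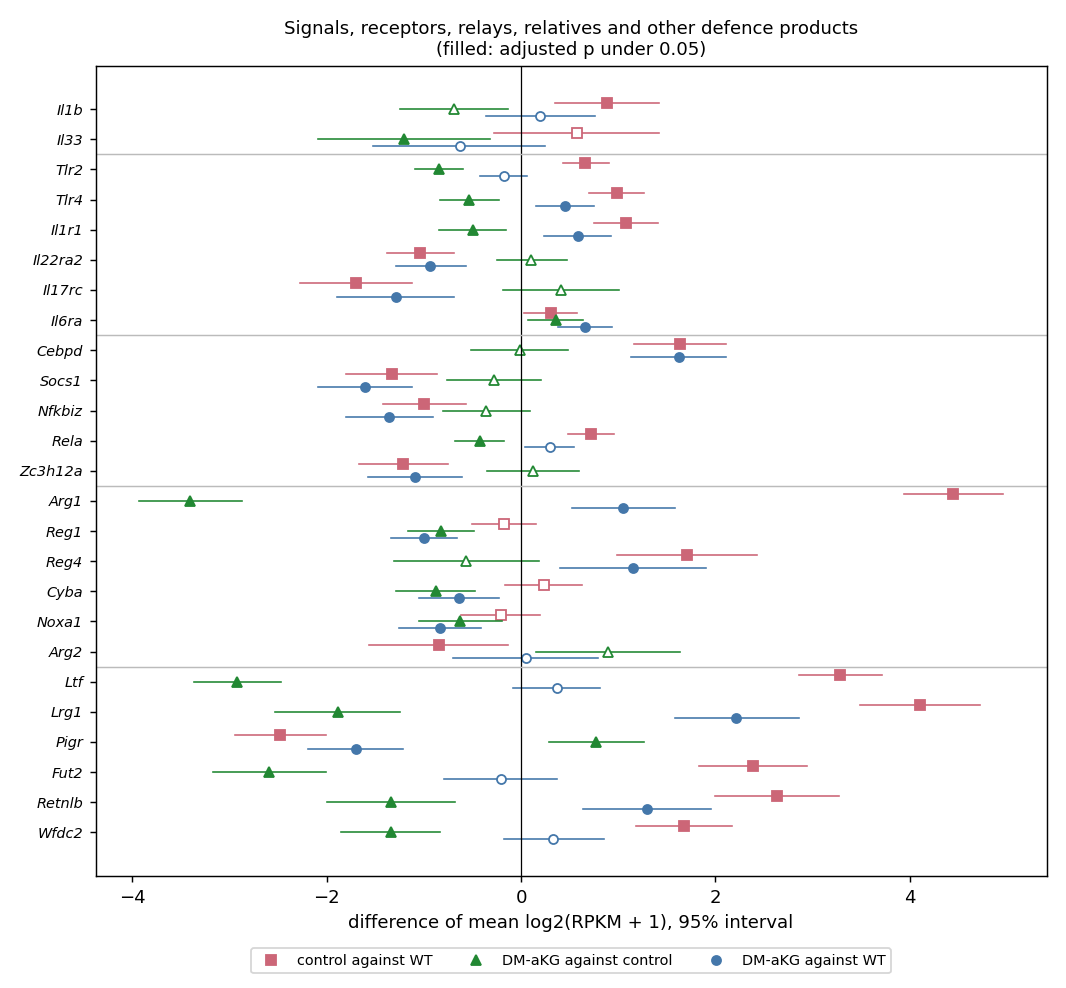
Differences of mean log2(RPKM + 1) with unadjusted 95% intervals for 25 genes of the 5 lists named by rule (squares control Min against WT, triangles DM-aKG against control Min, circles DM-aKG Min against WT), filled where the limma adjusted p was under 0.05. Arg1, Lrg1, Ltf and Fut2 lie far right in control Min against WT and left with DM-aKG, while Socs1 and Nfkbiz lie left against WT in both Min groups. Arg1 and Ltf passed the filter only with control Min counted, so their place is in part set by the filter.

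The genes whose pattern was most like that of each member were ranked by Pearson r over the 20 libraries after subtracting group means. For Nos2 they were Nfkb2 (r 0.882), Slc37a1 (0.88) and Tnfsf13 (0.872), and for Duoxa2 they were Cd47 (0.817), Il18bp (0.805) and Socs3 (0.802). Duox2 was followed by Zbtb7a (0.789), Bcl3 (0.785) and B3gnt7 (0.783). Chst4 and Stom were 2 of the 3 nearest genes for both Reg3g (0.853 and 0.847) and Saa1 (0.892 and 0.885), and Stom was also near Reg3b (0.834), after B4galt1 (0.87). Lcn2 was nearest to Blnk (0.895), Bag5 (0.894) and Tmem248 (0.891), and Saa3 to Fxyd5 (0.836), Ppil1 (0.81) and Arg1 (0.803). Spearman rho was lower, at 0.663, 0.815 and 0.75 for the Lcn2 genes and 0.795, 0.71 and 0.639 for the Saa3 genes. All these r values were picked as the highest over many genes, and they are a description over libraries that share depth and cell makeup.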

How the data were processed

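Libraries of 7 WT, 7 control Min and 6 DM-aKG Min samples were grouped by their labels. The measurements are the table the authors deposited, 24795 genes by 20 libraries, which was read as RPKM. No label or header names this unit: it was inferred because values are fractional, add up to between 277634 and 369409 in a library and come in gene-specific steps. The submitters' processing notes list CASAVA 1.8, HISAT2 2.0.4, Partek and mm10, and which tool did what, the annotation and the strand setting are not given. RPKM is relative to the library total, so large changes in abundant genes shift all others, and the 10 most abundant genes held 6.56 to 13.8% of it.

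The step between low values gave an estimate of depth: of those worth up to 8 reads, 66.1 to 72.1% came out whole to within 0.1 read (20% if evenly spread). That share is too small to recover reads, so no count test was run, and no interval for counting error is given. No 2 libraries were the same, with Pearson correlations over genes of 0.8118 to 0.9922.

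Log2(RPKM + 1) of the 12433 genes that reached 1 RPKM in 6 or more libraries was fitted with limma 3.58.1 (R 4.3.3, statmod 1.5.0), all 3 groups in a single model with trended, robust empirical Bayes moderation. Tests were 2-sided and adjusted by Benjamini-Hochberg over all genes tested, with a threshold of 0.05. The step was tested on simulated data. Members and gene lists were chosen with earlier results of these data known. Replicates 1 to 4 and 5 to 7 were compared because the earlier work set them apart by the level of a ribosomal transcript. Named list genes were called in any comparison, up to 6 per list with the smallest p. One of these list genes is not reported here and was left out of the list counts. Like genes were the 3 non-members with the highest r and a mean log2(RPKM + 1) of at least 2, leaving out predicted genes and antibody or receptor segments. Alternatives varied the pseudocount, filter, scaling, moderation and libraries used. Replicate numbers were not taken as pairs, since not every same-numbered pair deviated together. Figures were drawn with matplotlib 3.10.9.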

Additional observations from a re-analysis of the deposited data

Results flagged for a closer look

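In each group, the highest or lowest library was set against the rest for the 9 members and the 25 list genes named, 102 sets of a gene and a group, and 20 had a library far from the others. The limit used flags about 1 in 20 sets by chance if values are normal and sets independent. RPKM is skewed to high values and the sets share libraries, so the chance rate here is not known, and all but the Il6ra value were the highest of their group. A single library gave many of them. DM-aKG replicate 2 was highest for Lcn2 (74.5 RPKM, next 18.4), Il1b (2.35, next 1.07), Tlr2 (1.60, next 0.772), Il1r1 (5.28, next 3.53), Cebpd (30.3, next 15.6), Rela (19.2, next 12.0), Lrg1 (28.8, next 9.96) and Fut2 (4.29, next 1.63). It also had the highest Ly6g of the DM-aKG Min libraries, at 32.5 RPKM.

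Control replicate 6 was highest for Duox2 (55.4 RPKM, next 25.4), Duoxa2 (69.4, next 37.0), Il1b (8.22, next 2.86), Socs1 (3.14, next 1.004), Zc3h12a (11.01, next 7.10) and Fut2 (22.1, next 13.0). WT replicate 2 was highest for Reg3b (9088 RPKM, next 4114), Saa1 (212.4, next 70.8) and Saa3 (5.39, next 2.53), and its Fabp6 was the highest of all libraries, at 9728 RPKM. The remaining 3 were Il33 in DM-aKG replicate 6 (8.07 RPKM, next 3.73), Wfdc2 in WT replicate 4 (0.958, next 0.433) and Il6ra in control replicate 4, which was lowest (1.16, next 2.28).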

How the results depend on the processing

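The count of members called with DM-aKG against control Min was 4 with each library left out in turn, and 3 to 6 in control Min against WT and 4 to 5 in DM-aKG Min against WT (4 in each with all libraries). Leaving out 1 library gave 3441 to 4556, 6748 to 7448 and 3787 to 5142 genes called. With replicates 1 to 4 only, 2225 genes were called with DM-aKG in place of 4167. With replicates 5 to 7 only, 2 members were called in control Min against WT and 2 in DM-aKG Min against WT. In the latter, 547 genes were called in place of 4873. Fits of 1 replicate set hold fewer libraries, and the later set has only replicates 5 and 6 of the DM-aKG group. The sign of Reg3b turned with DM-aKG under epithelial scaling (0.005) and over single libraries left out (-0.663 to 0.038), and in control Min against WT under quantile normalization (0.082) and in replicates 5 to 7 (0.095), as did that of Nos2 with DM-aKG (-0.023) and Saa3 in DM-aKG Min against WT (-0.851) in replicates 5 to 7; none of these had passed. Fitting only the 2 groups compared lost Nos2 in control Min against WT (adjusted p = 0.0562) and brought Nos2 (0.013) and Saa1 (0.0113) past the threshold in DM-aKG Min against WT. Median-of-ratios scaling brought Reg3g past it in control Min against WT (0.0406). The cause was not tested in any of these.

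With the replicate block, 4 members passed in each comparison and 4361 genes with DM-aKG (758 higher, 3603 lower); same-numbered libraries did not all deviate together. The correlation of their deviations was over 0.1 in 4 of 6 pairs of DM-aKG and control Min (-0.457 to 0.604), 3 of 7 of control Min and WT (-0.302 to 0.513) and 1 of 6 of DM-aKG Min and WT (-0.051 to 0.152). Scaling sets the split of calls over all genes: with DM-aKG 82.4% of calls were falls, but 51.4% under quantile normalization, 52.9% under median-of-ratios and 28.9% under epithelial scaling, which moved the median of all genes from -0.14 to 0.02, 0.02 and 0.15. In control Min against WT 26.6% were lower, and 50.8, 51.1 and 25.6% under these scalings. In DM-aKG Min against WT they were 44.1%, and 51.4, 52.2 and 9.48%. The DESeq2 alternative was not run because the table holds no counts. Depth limits Saa2 most, with no more than about 34.5 reads per library.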
